A study of Homo sapiens with 12 samples.

Results

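The classical cadherins and the non-clustered protocadherins of SH-SY5Y cells were taken from the count table by symbol: CDH followed by a number, or PCDH followed by 1 of the 12 names of the protocadherins outside the gene clusters. That choice gave 35 genes of 59087 features, 23 with a CDH symbol and 12 protocadherins. SH-SY5Y, an established cell line from a human neuroblastoma, resembles early sympathetic neurons. Wild-type cells were compared with 3 independently made FMR1-KO lines, in which the gene of the RNA-binding protein FMRP, lost in fragile X syndrome, was targeted. All cells, wild type included, were grown for 2 weeks in SILAC medium with dialyzed serum, either heavy, with arginine and lysine of heavy isotopes, or light, with the ordinary amino acids. Poly(A) RNA of 4 groups of 3 libraries was sequenced: wild type heavy, wild type light, knockout heavy and knockout light. With the replicate numbers of the labels taken as line numbers, each knockout line gave 1 library per medium. The 6 knockout libraries then stand for 3 lines. Nothing in the labels says that the 6 wild-type libraries came from separate cultures, so their spread may be technical. Making a line and losing FMR1 cannot be told apart in these comparisons.

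Cadherins are transmembrane proteins whose extracellular repeats bind calcium and hold neighbouring cells together. Classical cadherins bind the same or a related cadherin on the next cell and are tied to actin through the catenins. Type I members such as N-cadherin give strong adhesion, and type II members are used in finer combinations by nerve and mesenchymal cells. Non-clustered protocadherins adhere more weakly and act in part as signalling receptors. The delta-1 subgroup carries a motif for protein phosphatase binding, and several delta-2 members recruit the WAVE complex, which starts branched actin. In the nervous system both families take part in axon sorting, synapse formation and neural crest migration. The symbol rule also took CDH13, CDH16, CDH17, CDH23 and CDH26, which are not classical cadherins by structure. CDH13 is anchored by a lipid, and CDH23 is a very long cadherin of the hair cell tip link.

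Library totals ran from 25935152 to 40257027 counts. Levels are in CPM, the count of a gene relative to the TMM-scaled library size. FMR1 itself, the check of the labels, lay between 35.9 and 42.0 CPM in wild type. It was at 22.4 CPM in the library labelled knockout line 1 heavy and at 11.4 CPM in line 1 light. Line 2 had 12.8 CPM (heavy) and 11.5 CPM (light), and line 3 had 7.19 and 9.06 CPM. The library labelled knockout line 1 heavy therefore stood apart from line 1 light. On the straight line from line 1 light (0%) to the wild-type mean (100%) it lay at 41.7% for FMR1. Over the 142 tested genes of at least 10 CPM that differed at least 4-fold between these ends, the median was 48.3% (quartiles 43.9% and 52.3%). Among members the position was 50.3% for CDH11, 51.1% for PCDH17, 53.0% for CDH23, 43.4% for PCDH9 and 41.0% for PCDH1. Fold changes of the members called in line 1 are given with and without it. Leaving out 1 library of a line leaves that line with 1 library, which the fit assumes to vary like the others.

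Of the 35 members, 13 had enough counts to be tested: 2 of 5 type I cadherins, 4 of 13 type II cadherins, 1 of 5 other CDH symbols, 2 of 4 delta-1 and 4 of 5 delta-2 protocadherins. None of the 3 remaining protocadherins (PCDH12, PCDH15, PCDH20) was tested. A further 13 members had counts but too few for the test, at most 19 in a library, for CDH1. The other 9 members (CDH6, CDH9, CDH10, CDH12, CDH13, CDH16, CDH19, PCDH11X and PCDH20) had no count in any of the 12 libraries. PCDH20 shares 4577 exon bases with the same-strand gene AL592490.1, so its zero is uncertain.

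The wild-type level per kilobase of exon, which allows genes of unequal length to be compared, was led by CDH2 (N-cadherin, the main cadherin of neural cells) at 35.5 ± 1.12 CPM per kb (SD, n = 6). CDH24, a type II cadherin that binds alpha-catenin, followed at 14.3 ± 0.981 CPM per kb. CDH11 (OB-cadherin, used by mesenchymal and migrating neural crest cells) had 3.99 ± 0.159 CPM per kb. The spreads of these levels did not meet. Among protocadherins PCDH1 had 2.38 ± 0.206, PCDH18 had 1.68 ± 0.191, PCDH17 had 1.09 ± 0.137 and PCDH9 had 0.599 ± 0.0774 CPM per kb. All other members were at or below the 0.148 ± 0.0458 CPM per kb of PCDH8, which overlapped the 0.143 ± 0.0154 of CDH23. Exon length was the union of annotated exons, 30.9 kb for PCDH9 and 18.6 kb for CDH23, so unused exons lower these values. E-cadherin (CDH1), the epithelial type I cadherin, had 22 counts in the 6 wild-type libraries together, or 0.111 CPM of the unscaled totals (exact Poisson 95% interval 0.0698 to 0.169, counting error only).

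**Figure D1:**
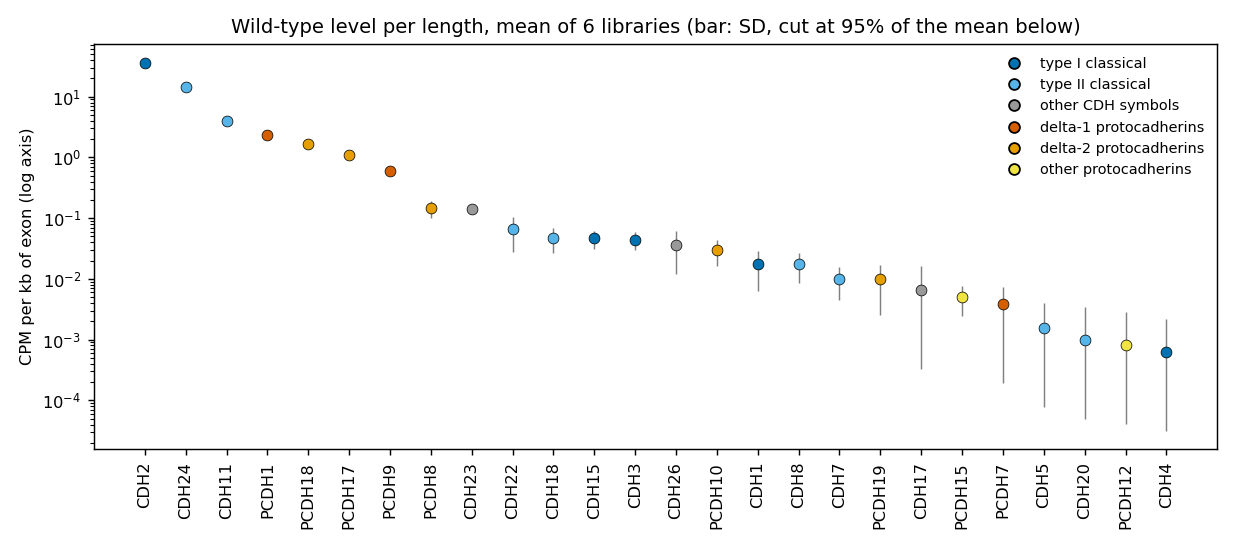
Level in wild type per kilobase of exon (CPM per kb, log axis) for each member with a count in wild type, as the mean of 6 libraries with the SD as a bar. CDH2, CDH24 and CDH11 stand above every protocadherin, and PCDH1 leads the protocadherins at 2.38 CPM per kb.

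The main comparison asked which members differed between the 6 knockout and the 6 wild-type libraries, with the medium as a covariate. PCDH17 and PCDH1 were higher, and PCDH18 and CDH2 were lower. These 4 were 30.8% of the 13 members tested, beside 24.8% of all 16704 genes tested (15.0% higher and 9.78% lower in knockout). The median log2 fold change was -0.59 over the 13 members and 0.00 over all genes. The count filter asks for enough counts in 3 libraries. A scarce member high in wild type can pass it, but one high only in a line of 2 libraries cannot. Member medians and counts of lower members may therefore lean downward. Tests were edgeR quasi-likelihood F tests with Benjamini-Hochberg adjustment over all tested genes, and a call is an adjusted p under 0.05. When the counts were summed per line, which gives each line a single value, PCDH18 was the call that held, and 1.58% of all genes were called. In that fit the adjusted p was 0.158 for PCDH1, 0.0673 for PCDH17 and 0.0797 for CDH2.

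The comparisons of single lines with wild type share the 6 wild-type libraries and 1 fit. In line 1, 7 members were called, 2 higher and 5 lower, beside 28.2% of all genes (15.4% higher, 12.8% lower). In line 2 there were 10, 2 higher and 8 lower, beside 43.0% (22.9% higher, 20.1% lower). In line 3 there were 4, 2 in each direction, beside 5.00% (3.27% higher, 1.73% lower). The median log2 fold change of the 13 members was -0.83 in line 1, -0.80 in line 2 and -0.05 in line 3. These medians and the counts of lower members carry the same limit of the filter. A direct F test that the 3 lines are equal called 7 of the 13 members, beside 23.2% of all genes: PCDH1, PCDH9, PCDH17, CDH23, PCDH10, CDH3 and CDH11. Without the library labelled knockout line 1 heavy the member calls were 10 in line 1, 10 in line 2 and 6 in line 3, beside 27.3%, 44.2% and 7.54% of all genes. The adjusted p of the line comparisons comes from lines of 2 libraries each, which share 1 estimate of the spread over all 12.

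**Figure D2:**
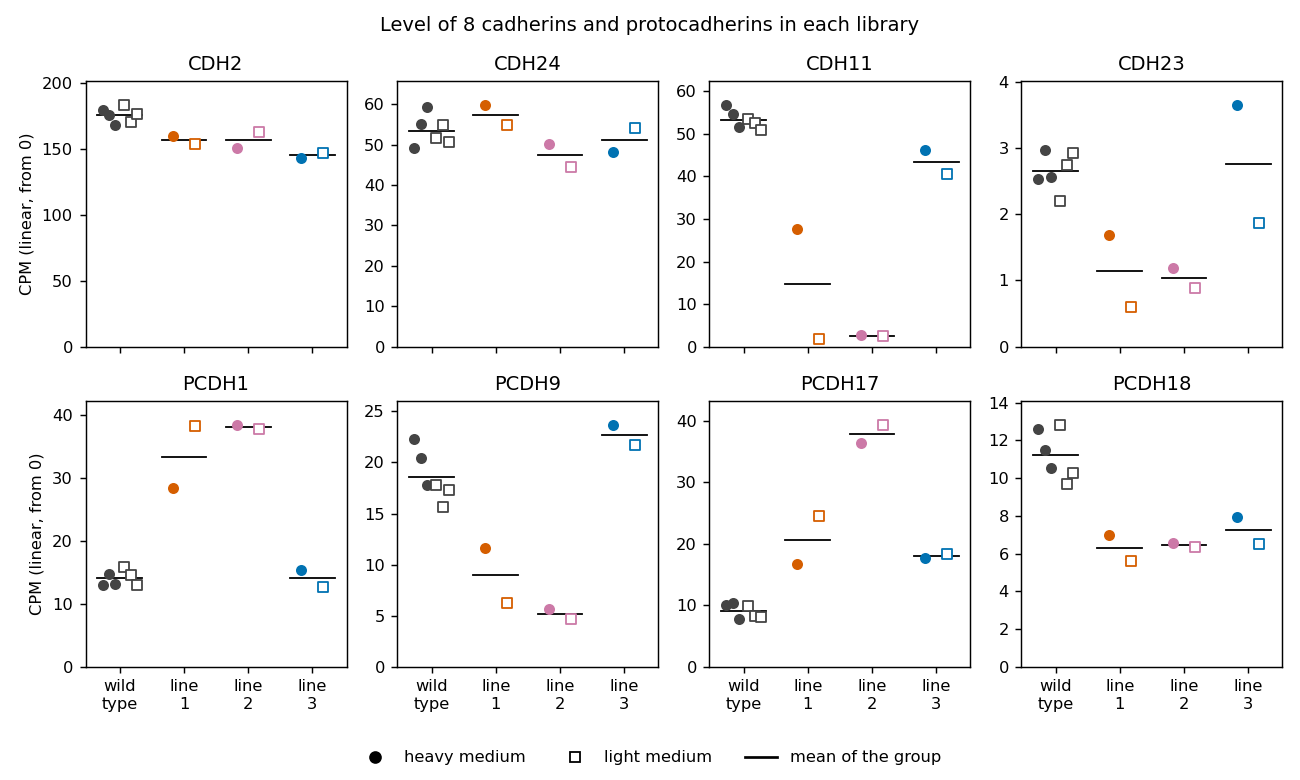
CPM of the 8 members with at least 1 CPM, 1 panel each on a linear axis from 0, by group, with heavy (filled circles) and light (open squares) libraries and the group mean as a bar. PCDH18 and CDH2 are lower and PCDH17 is higher in each knockout library than in all wild-type ones, and CDH11 splits the lines.

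Among the type I cadherins CDH2 had a lowest, median and highest wild-type level of 168.6, 176.2 and 183.4 CPM. Its level was 160.2 CPM in line 1 heavy, 153.9 in line 1 light, 151.2 and 163.3 in line 2 heavy and light, and 143.1 and 147.4 in line 3. All 6 knockout libraries lay below the lowest wild-type library. The log2 fold change was -0.20 ± 0.0413 (SE; adjusted p = 0.00555), from 175.8 ± 5.53 CPM (SD, n = 6) to 153.2 ± 7.63 CPM (SD, n = 6). By line it was -0.16 in line 1 (adjusted p = 0.0237), -0.16 in line 2 (0.0164) and -0.28 in line 3 (0.00314), and the test among the lines gave an adjusted p of 0.297. Each of these line calls was lost without 1 library of that line: 0.378 without line 1 light, 0.288 without line 2 heavy and 0.08 without line 3 heavy. Without line 1 heavy, line 1 was at -0.22 (adjusted p = 0.0282). CDH2 made up at least 99.29% of the summed type I level per kilobase in each of the 12 libraries.

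CDH3 (P-cadherin) was near the limit of detection, with 54 counts over the 6 wild-type libraries. Line 3 had 32 counts in heavy and 20 in light medium, and no wild-type library had more than 13. Summed over libraries and taken relative to the unscaled totals, the level came to 0.761 CPM in line 3 (exact Poisson 95% interval 0.568 to 0.998) and to 0.273 in wild type (0.205 to 0.357). Its log2 fold change in line 3 was 1.50 ± 0.368 (adjusted p = 0.0210). The call was lost without line 3 heavy (adjusted p = 0.61) and with DESeq2 (0.0638). The test among lines (0.0243) was lost without line 1 heavy (0.186), line 2 heavy (0.0506) or line 3 heavy (0.161), and over all knockout libraries the adjusted p was 0.159, and 0.0381 without line 1 heavy. CDH3 shares 694 exon bases with the opposite-strand gene AC126773.2, and the strand setting of the counting is not known here. E-cadherin was not tested, with 24 counts in line 3, 19 of them in the light library, 7 in line 1 and 3 in line 2.

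Among the type II cadherins CDH11 had the widest range. Its lowest, median and highest wild-type levels were 50.9, 53.1 and 56.7 CPM. Line 2 stood at 2.65 CPM (heavy) and 2.39 CPM (light), line 1 light at 1.78 CPM and the library labelled knockout line 1 heavy at 27.7 CPM. Line 3 had 46.3 CPM (heavy) and 40.7 CPM (light). All 6 knockout libraries lay below the wild-type range, 3 of them near the bottom of the scale, 1 midway and both of line 3 just under it. The wild-type mean was 21.2 times the line 2 mean and 29.9 times the line 1 light level.

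The log2 fold change of CDH11 was -1.44 ± 0.782 over all knockout libraries (adjusted p = 0.205), which did not pass. By line it was -4.45 ± 0.864 in line 2 (adjusted p = 0.0045), -2.03 ± 0.666 in line 1 (0.0601) and -0.30 ± 0.567 in line 3 (0.836). The test among the lines gave an adjusted p of 0.0344. That call was lost without any single library other than those of line 1, with adjusted p between 0.0512 and 0.168. Without the line 1 heavy library, line 1 was at -4.86 by its light library alone, which has no replicate of its own in that fit. There line 2 was at -4.41 and line 3 at -0.30 (adjusted p = 5.28e-18 and 0.00543). Without line 2 heavy, the call of line 2 was lost (adjusted p = 0.0656).

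CDH24 differed by less: 53.4 ± 3.68 CPM in wild type against 51.9 ± 5.42 CPM in the knockout libraries (SD, n = 6 each), a log2 fold change of -0.04 ± 0.0695 (adjusted p = 0.697). It was at 59.8 and 54.8 CPM in line 1 heavy and light, 50.2 and 44.5 in line 2, then 48.2 (heavy) and 54.2 (light) in line 3. These overlapped the wild-type libraries, whose lowest, median and highest levels were 49.1, 53.2 and 59.2 CPM. In line 2 its log2 fold change was -0.18 (adjusted p = 0.0743). That value came to 0.0339 without line 3 heavy, 0.034 without line 3 light and 0.0264 without wild type heavy 1. The test among lines gave 0.0935, and 0.0474 without line 3 light. Of the summed level per kilobase of the 18 classical cadherins, CDH11 made up 7.14% to 7.86% in wild type and 6.39% to 7.59% in line 3. It was 0.289% in line 1 light, 0.447% and 0.395% in line 2 and 4.10% in the line 1 heavy library. CDH2 and CDH24 made up nearly all the rest.

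**Figure D3:**
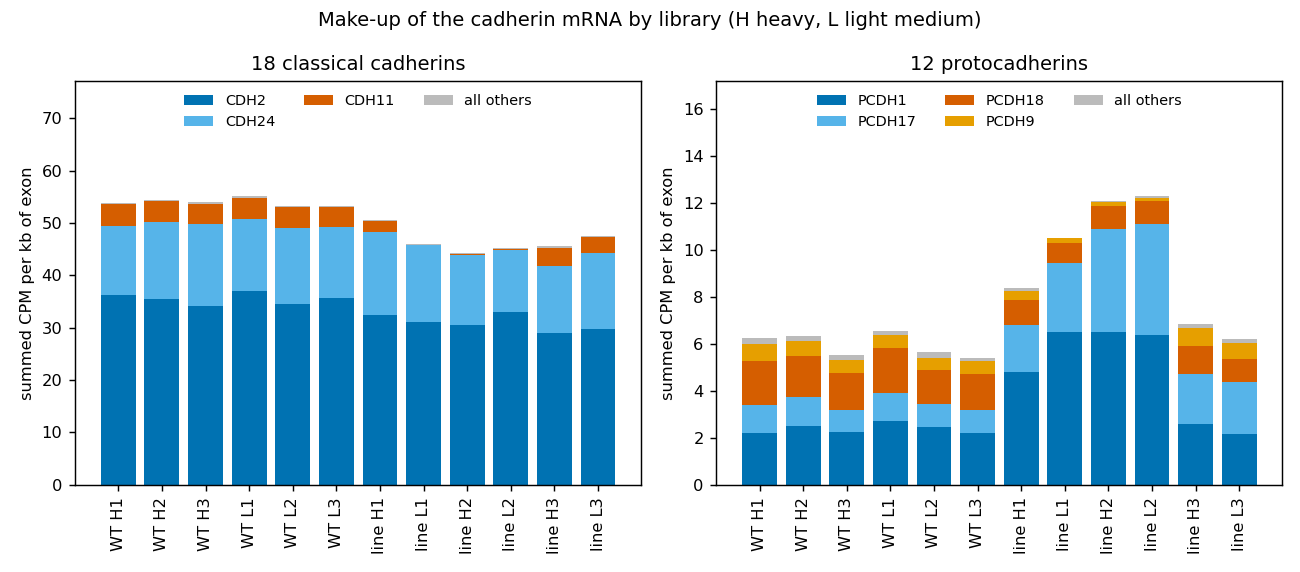
Summed level per kilobase of exon in each library (bars from 0), split by gene, for the 18 classical cadherins (left) and the 12 protocadherins (right). The CDH11 segment nearly vanishes in line 2 and line 1 light, and the protocadherin sum rises from 5.37 to 6.56 CPM per kb in wild type to 12.1 and 12.3 CPM per kb in line 2.

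CDH8, a type II cadherin of synapses, had 48 counts over the 6 wild-type libraries and 16 in line 3. Lines 1 and 2 had 3 counts each. On the same summed scale the level was 0.243 CPM in wild type (exact Poisson 95% interval 0.179 to 0.322), 0.0428 in line 1 (0.00884 to 0.125) and 0.0495 in line 2 (0.0102 to 0.145). Both lines were called lower (adjusted p = 0.0266 in line 1 and 0.0313 in line 2). CDH8 met the count filter through wild-type libraries alone, so the limit of the filter given above bears on these calls. The fitted log2 fold change of line 1 was -2.39, and -3.14 without line 1 heavy (adjusted p = 0.0474), at a single count. At these counts neither call was stable: DESeq2 gave 0.0757 and 0.0794, the line 1 call was lost without line 1 light (0.359), and the line 2 call without either of its libraries (0.123 and 0.203). The line 2 call was also lost without wild type heavy 2 (0.0563), wild type light 1 (0.0502) or wild type light 2 (0.0519). Over all knockout libraries the adjusted p of CDH8 was 0.147, and 0.0251 without line 3 light. CDH22, at 67 counts in wild type, did not pass in any comparison. Its counts per library ran from 4 to 23 in wild type and from 8 to 12 in knockout, inside that range.

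CDH23 forms the upper part of the tip link that gates the hair cell channel, and PCDH15 forms the lower part. CDH23 had a lowest, median and highest wild-type level of 2.20, 2.65 and 2.97 CPM. It was at 1.69 CPM in line 1 heavy, 0.594 in line 1 light, 1.18 and 0.888 in line 2, then 3.65 (heavy) and 1.86 (light) in line 3. Both libraries of lines 1 and 2 lay below wild type, and those of line 3 lay on either side of it. The log2 fold change was -1.27 ± 0.265 in line 1 (adjusted p = 0.00155), -1.37 ± 0.278 in line 2 (0.000622) and 0.00 ± 0.216 in line 3 (0.998). The lines differed (adjusted p = 0.00393), though not without line 3 heavy (0.147), and the call of line 1 was lost without line 1 light (0.0926). Without line 1 heavy, line 1 was at -2.02 (adjusted p = 0.000199). Over all knockout libraries it was -0.75 (adjusted p = 0.0993), and 0.00507 without line 3 heavy. CDH23 shares 3505 exon bases with the opposite-strand gene C10orf105, which had 39 counts in all libraries against 849 for CDH23.

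PCDH15 was not tested: it had 15 counts in wild type, 16 in line 1, 26 in line 2 and 7 in line 3. Its summed level was 0.0760 CPM in wild type (exact Poisson 95% interval 0.0425 to 0.125) and 0.429 in line 2 (0.280 to 0.629). With no filter on low counts its adjusted p was 0.000267 in line 2. The list of tip link partners, which anchor or gate that complex, had 7 of 10 genes tested. In knockout 2 were higher and none lower: TMIE (log2 fold change 0.51, adjusted p = 0.0236) and USH1G (0.68, 0.0268). Beside these, 15.0% of all genes were called higher and 9.78% lower. Line 1 had 2 genes higher, while 3 were higher and 1 lower in line 2 (WHRN, log2 fold change -1.47, adjusted p = 0.0091). None was called in line 3. Of all genes, 28.2% were called in line 1, 43.0% in line 2 and 5.00% in line 3. TMIE differed among the lines (adjusted p = 0.00228), as did WHRN (0.0135), which was singled out after its values were seen. CIB2, the highest of the list per kilobase, was at 0.13 (adjusted p = 0.0958).

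The 250 bases before the RefSeq start are shown for PCDH17 and PCDH1, which rose, and for PCDH9 and PCDH18, which fell in at least 2 lines, so that promoters of members moving in opposite directions can be read side by side. They come from RefSeq on GRCh38.p14 and are written 5′ to 3′ on the strand of the gene. Capitals mark the E-box CAGGTG, the core that SNAI and ZEB repressors read, or its form on the other strand, which is spelled CACCTG.
PCDH17 promoter, chr13:57631494-57631743, plus strand: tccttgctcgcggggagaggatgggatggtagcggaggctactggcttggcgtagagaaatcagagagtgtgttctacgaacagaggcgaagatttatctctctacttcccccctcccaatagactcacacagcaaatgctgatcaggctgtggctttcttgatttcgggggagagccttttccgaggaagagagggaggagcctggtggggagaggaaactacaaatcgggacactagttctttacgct
PCDH1 promoter, chr5:141869628-141869877, minus strand: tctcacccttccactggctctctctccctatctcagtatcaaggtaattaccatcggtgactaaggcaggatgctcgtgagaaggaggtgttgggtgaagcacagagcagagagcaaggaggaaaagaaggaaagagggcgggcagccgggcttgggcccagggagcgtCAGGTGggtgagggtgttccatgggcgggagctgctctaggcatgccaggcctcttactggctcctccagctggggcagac
PCDH9 promoter, chr13:67230337-67230586, minus strand: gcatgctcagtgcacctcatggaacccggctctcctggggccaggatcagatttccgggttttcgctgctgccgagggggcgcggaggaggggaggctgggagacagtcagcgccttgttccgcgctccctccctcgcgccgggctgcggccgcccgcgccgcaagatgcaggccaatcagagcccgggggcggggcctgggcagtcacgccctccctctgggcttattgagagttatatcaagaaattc
PCDH18 promoter, chr4:137532495-137532744, minus strand: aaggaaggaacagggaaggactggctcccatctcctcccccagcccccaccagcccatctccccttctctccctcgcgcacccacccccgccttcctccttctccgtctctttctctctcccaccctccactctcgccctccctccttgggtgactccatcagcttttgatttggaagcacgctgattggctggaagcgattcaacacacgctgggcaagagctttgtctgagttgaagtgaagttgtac

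PCDH1 has 1 such E-box, whose first base is 81 bases before the start, and these letters are not in the other 3 windows. The motif, searched on both strands, is in 4 of 35 windows (11.4%) of the 22 members with an entry, beside 17.5% of all 35116 windows of that length. A match is a description of letters and not a bound site. The window of PCDH9 holds 20 CpG pairs and that of PCDH17 10, those of PCDH18 and PCDH1 hold 8 and 6, and the median of all windows is 11. RefSeq starts PCDH1 at base 141869627 of chromosome 5, while the GENCODE gene reaches base 141879246, so the window shown is not at the GENCODE start.

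PCDH17, a delta-2 protocadherin of synapses and axon bundles, had all 6 knockout libraries above the wild-type range. Its lowest, median and highest wild-type levels were 7.82, 9.10 and 10.4 CPM. It had 16.7 CPM in line 1 heavy, 24.6 in line 1 light, 36.5 and 39.3 in line 2, then 17.6 (heavy) and 18.3 (light) in line 3. The log2 fold change was 1.49 ± 0.240 (adjusted p = 0.00288), from 9.08 ± 1.14 CPM to 25.5 ± 10.0 CPM (SD, n = 6 each). By line it was 1.18 ± 0.126 in line 1 (adjusted p = 4.42e-06), 2.06 ± 0.120 in line 2 (1.72e-09) and 0.99 ± 0.129 in line 3 (0.000202). The lines differed in size (adjusted p = 0.000136), with line 2 the highest. Without line 1 heavy, line 1 was at 1.44 (adjusted p = 3.5e-08). The gene lies on chromosome 13, at bases 57631810 to 57729311 of the plus strand. The opposite-strand gene AL445288.1 shares 654 exon bases and had 10 counts in all, against 6747 for PCDH17.

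PCDH1, a delta-1 protocadherin of axons that is also found in airway epithelium, had a lowest, median and highest wild-type level of 12.9, 13.8 and 15.9 CPM. Line 2 had 38.4 CPM (heavy) and 37.7 CPM (light), line 1 light had 38.3 CPM and line 1 heavy had 28.4 CPM. Line 3, at 15.4 and 12.7 CPM, did not stand apart from wild type. By line the log2 fold change was 1.24 ± 0.102 in line 1 (adjusted p = 8.78e-08), 1.44 ± 0.101 in line 2 (4.97e-09) and 0.00 ± 0.113 in line 3 (0.996). The lines differed (adjusted p = 1.62e-06). Without line 1 heavy, line 1 was at 1.45 (3.66e-09). Over all knockout libraries it was 1.02 ± 0.284 (adjusted p = 0.0274). That call was lost without any 1 of 7 libraries, with adjusted p from 0.0518 to 0.0702: line 1 light, both of line 2, wild type heavy 1 and 3 and wild type light 2 and 3.

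PCDH9, the longest of the delta-1 genes here and a protocadherin of cortical and sensory neurons, had a lowest, median and highest wild-type level of 15.6, 17.8 and 22.3 CPM. It was at 11.6 CPM in line 1 heavy, 6.28 in line 1 light, 5.64 and 4.67 in line 2, then 23.7 (heavy) and 21.7 (light) in line 3. Lines 1 and 2 lay below the wild-type range, and line 3 just above and just below its top. By line it changed by a log2 value of -1.07 ± 0.130 in line 1 (adjusted p = 9.38e-06), -1.85 ± 0.144 in line 2 (2.01e-08) and 0.30 ± 0.115 in line 3 (0.159). The lines differed (adjusted p = 1.49e-07). In line 3 it came to 0.0384 without line 1 heavy and 0.0392 without line 1 light. Without line 1 heavy, line 1 was at -1.44 (adjusted p = 1.76e-07). Over all knockout libraries PCDH9 was at -0.59 (adjusted p = 0.313), a mean of lines that differ in sign. Of its tested neighbours on chromosome 13, HNRNPA3P5, at 514.1 kb, was at a log2 fold change of 0.32 in line 1 (adjusted p = 0.684) and 0.24 in line 2 (0.755). DACH1, at 4208 kb on the other side, fell in line 1 (-1.82, 0.00941) and line 2 (-3.04, 0.000868).

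PCDH18, a delta-2 protocadherin, fell in each of the 3 lines. Its lowest, median and highest wild-type levels were 9.71, 11.01 and 12.8 CPM, and the knockout libraries had 7.01 and 5.63 CPM in line 1 heavy and light, 6.57 and 6.37 in line 2, then 7.96 (heavy) and 6.53 (light) in line 3. All 6 knockout libraries lay below the wild-type range. The log2 fold change was -0.75 ± 0.0908 (adjusted p = 0.000318), from 11.2 ± 1.28 to 6.68 ± 0.773 CPM (SD, n = 6 each). By line it was -0.83 in line 1 (adjusted p = 6.25e-05), -0.80 in line 2 (5.29e-05) and -0.64 in line 3 (0.00365, and 0.0714 without line 3 light). The test among the lines gave an adjusted p of 0.585. Without line 1 heavy, line 1 was at -0.94 (adjusted p = 0.000236).

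PCDH10 and PCDH8, delta-2 protocadherins known for work at synapses, were scarce. PCDH10, known to guide the loss of synapses, had 62 counts over the 6 wild-type libraries and 24 in line 3. Line 1 had 8 counts, all in the heavy library, and line 2 had 0. Its summed level was 0.314 CPM in wild type (exact Poisson 95% interval 0.241 to 0.402) and 0 in line 2 (0 to 0.0609). With 3 counts over the line as the floor, the wild-type level was 6.34 times that floor, counting error aside. Line 2 was called lower (adjusted p = 0.00312), and the lines differed (0.0189). The knockout libraries of PCDH10 alone would not have met the count filter, so the limit of the filter bears on the line 2 call. The line 2 call was lost without line 2 heavy (0.0831). The difference among lines was lost without line 2 heavy (0.136), line 2 light (0.0549) or line 3 light (0.0875). In line 1 the adjusted p was 0.138, and 0.0132 without the heavy library.

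PCDH8, known to draw N-cadherin off the synaptic surface, had 11 to 38 counts per wild-type library. Line 2 had 1 in heavy and 5 in light medium, line 1 had 18 and 2 and line 3 had 18 and 24. Its summed level was 0.775 CPM in wild type (exact Poisson 95% interval 0.657 to 0.908), 0.0991 in line 2 (0.0364 to 0.216) and 0.615 in line 3 (0.443 to 0.831). It was called lower in line 2 (log2 fold change -2.93 ± 0.701, adjusted p = 0.00297), but not without line 2 heavy (0.145). In line 1 the adjusted p was 0.0527, and 0.00272 without the heavy library. It was also under the threshold without line 2 heavy (0.0422), line 2 light (0.0401) or wild type light 3 (0.0329). The test among the lines gave 0.0633. It passed without line 1 heavy (0.00344), line 1 light (0.0146) or line 2 light (0.0379). Over all knockout libraries PCDH8 had an adjusted p of 0.112, and 0.0298 without line 3 light.

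**Figure D4:**
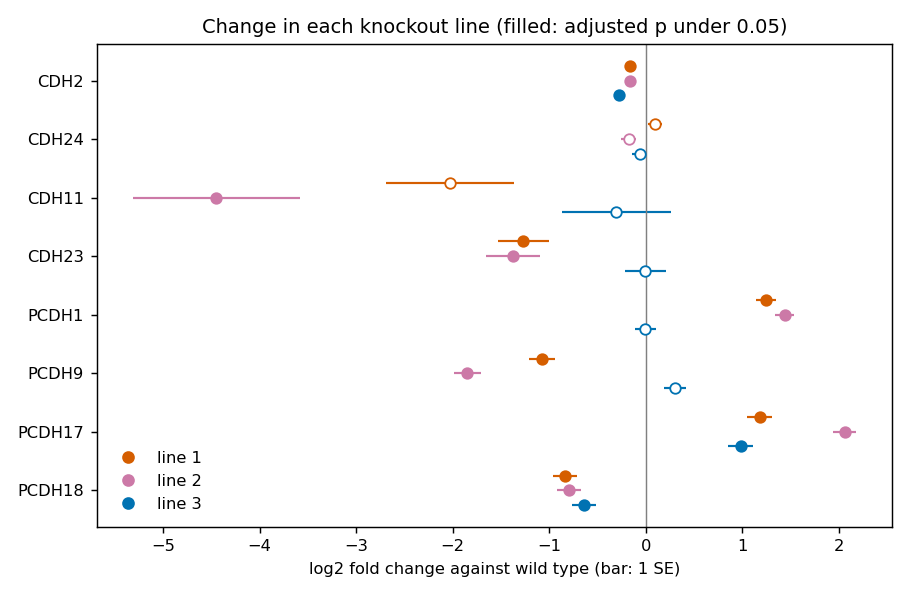
Log2 fold change against wild type (points, with 1 SE as bars) of the 8 members with at least 1 CPM in each knockout line, filled where the adjusted p is under 0.05. PCDH18 and CDH2 are lower in all 3 lines, while PCDH1, PCDH9 and CDH23 change in lines 1 and 2 and lie near 0 or above it in line 3.

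By line, CDH2, PCDH17 and PCDH18 were called in all 3. CDH23, CDH8, PCDH1 and PCDH9 were called in lines 1 and 2, CDH11, PCDH10 and PCDH8 in line 2, and CDH3 in line 3. The share of all genes with each of these patterns was not counted. The losses called in line 2 were not particular to it. Line 1 light was also low, at 1.78 CPM for CDH11, 0 counts for PCDH10 and 2 counts for PCDH8. The summed protocadherin level per kilobase was 5.37 to 6.56 CPM per kb in wild type, 12.1 and 12.3 in line 2, 10.5 in line 1 light, 8.38 in line 1 heavy and 6.84 and 6.20 in line 3. PCDH1 led this sum in 11 of the 12 libraries, and PCDH17 led it in line 3 light at 35.5%. The share of PCDH9 went from 8.76% to 11.5% in wild type to 1.23% and 1.51% in line 2. The share of PCDH18 was 25.8% to 30.2% in wild type and 7.76% to 17.4% in knockout.

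Heavy and light medium gave no member call, and 0% of all genes were called with edgeR. At an unadjusted p under 0.05 there were 2 members and 1099 genes. DESeq2 called 13 genes and no member. The 2 members were PCDH9 (log2 fold change of heavy against light 0.33 ± 0.0875, adjusted p = 0.46) and CDH23 (0.43 ± 0.174, 0.688). The difference between the line 1 libraries enters both.

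The catenins and junction linkers, which couple cadherins to actin, had 15 of 18 genes tested, with 3 higher and 5 lower in knockout (median log2 fold change -0.13). AFDN (afadin) fell by 0.30 on the log2 scale (adjusted p = 0.00264) and VCL (vinculin) by 0.22 (0.0103). CTNNA2, the neural alpha-catenin, rose by 0.23 (0.0146) and NECTIN4 by 1.62 from 0.168 CPM (0.00504). CTNNB1 (beta-catenin), the highest of the list per kilobase, was at -0.46 (adjusted p = 0.0445). By line it was at -0.56 in line 1, -0.85 in line 2 and -0.08 in line 3, and the lines differed (adjusted p = 6.88e-05). NECTIN2, singled out after its values were seen, was at 1.52 CPM in wild type, 1.30 in line 1, 18.01 in line 2 and 14.4 in line 3. By line the list had 7 genes lower in line 1, 3 higher and 7 lower in line 2 and 2 higher in line 3.

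The E-box binding repressors, which are known to act on E-cadherin, had 7 of 9 genes tested, none higher and 4 lower (median log2 fold change -0.41). TWIST1 was at -0.41 (adjusted p = 0.00456), TCF4 at -0.26 (0.00792), ZEB2 at -0.44 (0.0119) and TCF3 at -0.41 (0.0280). Line 1 had 5 lower, line 2 had 1 higher and 5 lower, and line 3 had 1 lower. The WAVE complex had 9 of 11 tested, with 1 higher and 2 lower (median -0.04). WASF3 was at -0.49 (adjusted p = 0.00981), CYFIP1, a known FMRP partner, at -0.19 (0.0228) and BRK1 at 0.20 (0.0119). Of the WAVE genes, line 1 had 1 higher and 3 lower, line 2 had 1 higher and 4 lower, and line 3 had none called.

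The genes that mature and cleave cadherins (furin-like proteases, ADAM proteases and gamma-secretase) had 14 of 15 tested, with 6 higher and none lower in knockout (median log2 fold change 0.17). PSEN2, a catalytic subunit of gamma-secretase, was at 0.52 (adjusted p = 0.00148) and its partner APH1B at 0.90 (0.00219). PCSK7 was at 0.24 (0.00614) and ADAM15 at 0.17 (0.0158). APH1A, the highest of the list per kilobase, was at -0.01 (adjusted p = 0.879). In lines 1, 2 and 3 there were 8, 9 and 2 genes higher, and none was lower. Other genes of the cadherin superfamily had 12 of 25 tested, with 5 higher and 2 lower (median 0.21). RET, a receptor with cadherin repeats that acts in sympathetic neurons, rose by 0.87 (adjusted p = 0.00199), CDHR1 by 0.92 (0.00696) and CELSR2 by 0.37 (0.00773), and DCHS1 was at -0.26 (0.0072). CLSTN1, the highest of the list per kilobase, rose by 0.24 (adjusted p = 0.00976). Line 1 had 6 of them higher and 4 lower, line 2 had 8 higher and 3 lower, and line 3 had 1 higher. These lists, the tip link partners included, count genes against the backgrounds given above and were not tested as sets. Of all genes, 24.8% were called in knockout, and 28.2%, 43.0% and 5.00% in lines 1, 2 and 3. The knockout values of the lists treat the 6 knockout libraries as separate, though they stand for 3 lines. With counts summed per line, 1.58% of all genes were called, and the list genes are not given in that fit.

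**Figure D5:**
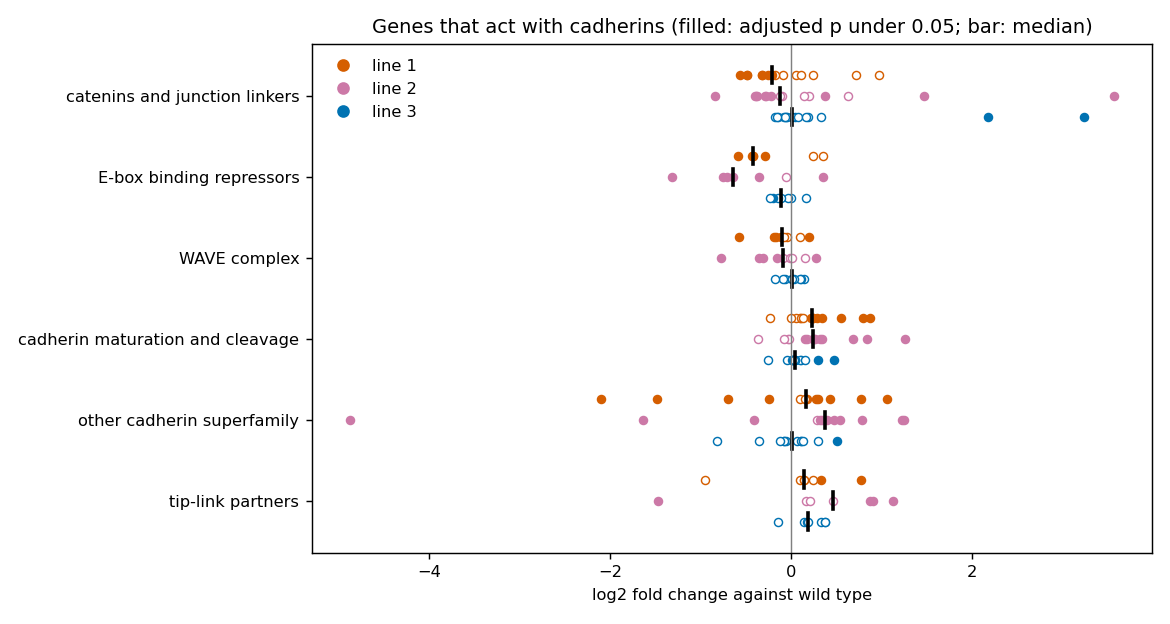
Log2 fold change against wild type of every tested gene of the 6 lists in each knockout line, filled where the adjusted p is under 0.05, with the list median as a bar. The E-box repressors lie mostly below 0 in lines 1 and 2, and the maturation and cleavage genes mostly above it.

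Marker lists, chosen with earlier results of these data known, were summed to describe the state of the cells. The adrenergic neuroblastoma list (10 of 10 genes in the table, none at 0) summed to 9492 to 10447 CPM in wild type. It was 8788 and 8188 CPM in line 1 heavy and light, 7086 and 7488 in line 2, then 9826 (heavy) and 9273 (light) in line 3. The mesenchymal list, some of whose cells use CDH11, summed to 85.4 to 91.0 CPM in wild type and 87.4 to 105.3 in knockout, with PRRX1 and MEOX2 at 0 in all libraries. Within that sum genes moved both ways. In line 2, 4 of 8 tested were higher and 3 lower, beside 22.9% and 20.1% of all genes. Among them were CD44 (log2 fold change 2.85), VIM (1.44), FN1 (-2.38) and SNAI2 (-1.31). The Schwann cell list (9 of 10 genes) summed to 7.86 to 9.35 CPM in wild type. It was at 22.0 and 31.7 CPM for line 1, 32.8 and 36.7 in line 2, then 12.2 (heavy) and 11.6 (light) in line 3. Its defining markers SOX10 and GFAP were at 0. The epithelial list (10 of 10) summed to 5.62 to 7.38 CPM in wild type and was at 9.60 and 10.9 CPM for line 1, 13.0 and 12.4 for line 2, then 6.89 and 7.43 for line 3. KRT5, KRT14 and ESRP1 were at 0, and 3 of 4 tested genes were higher in line 1 and in line 2. Of all genes, 15.4% were called higher in line 1 and 22.9% in line 2. Endothelial markers summed to at most 3.06 CPM, with TIE1, ROBO4 and EMCN at 0. Haematopoietic markers summed to at most 0.193 CPM, with PTPRC and CD3E at 0. The adrenergic sum was lower and the Schwann and epithelial sums higher in lines 1 and 2, where PCDH1, PCDH9, CDH23 and CDH11 differ most, and the part of these states in the member results was not tested. In bulk RNA, fewer cells of a type and less RNA per cell cannot be told apart.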

How the data were processed

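Poly(A) RNA was sequenced from stranded libraries, per the labels' protocols. The authors deposited raw gene-level counts, which are whole numbers. Per the submitters' processing notes, bcl2fastq 2.19.0, STAR 2.7.0f, featureCounts of Subread 1.6.4 and DESeq2 1.22.1 in R 3.5.1 were used with GRCh38.p13. Annotation release, strand setting and handling of multi-mapping reads: not given in the sources used here. Positions and exon lengths came from GENCODE release 29 on GRCh38.

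The deposited counts were fitted with edgeR 4.0.16 in R 4.3.3: filterByExpr over the 4 groups (16704 genes), TMM factors, robust quasi-likelihood fits on all 12 libraries with genotype or line plus medium, and Benjamini-Hochberg adjustment at 0.05. SEs were derived from the F statistics. The fits were checked on simulated counts with set changes, each library drawn separately. In the check of the knockout comparison the simulated lines did not differ. It therefore cannot show how that comparison handles lines that differ, as they do here. DESeq2 1.42.0 was an alternative. Groups came from the titles of the samples. Every tested member is described, those with a mean of at least 1 CPM library by library. From each gene list up to 4 called genes with the smallest p in knockout against wild type were named, plus the highest per kilobase. The members and lists were chosen with earlier results of these data known. No 2 libraries of a group agreed within sampling noise (chi-square per degree of freedom at least 4.62). Replicate numbers were taken as line numbers in the knockout groups. Deviations of the heavy and light library correlated at 0.145 in line 1, and at 0.735 and 0.742 in the other lines. The value of line 1 was close to the 0.126 of wild type heavy 1 and light 1. For line 1 the pairing therefore rests on the replicate numbers of the labels alone. The test among lines and the line fits use these line numbers, line 1 included, and wild-type numbers pair nothing.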

Additional observations from a re-analysis of the deposited data

Results flagged for a closer look

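The effects of the 3 knockout lines differed by the direct test among lines (edgeR quasi-likelihood F test, adjusted over all genes) for 7 members. The adjusted p was 1.49e-07 for PCDH9, 1.62e-06 for PCDH1, 0.000136 for PCDH17, 0.00393 for CDH23, 0.0189 for PCDH10, 0.0243 for CDH3 and 0.0344 for CDH11. PCDH17 rose in all 3 lines by unequal amounts. PCDH9, PCDH1 and CDH23 changed in lines 1 and 2 and were not called in line 3. For CDH23, CDH3, CDH11 and PCDH10 the call depended on single libraries. Without line 3 heavy the adjusted p of CDH23 was 0.147. Without line 2 heavy the adjusted p was 0.0506 for CDH3, 0.168 for CDH11 and 0.136 for PCDH10. In none of the 26 sets of wild-type or knockout libraries tested did a single library stand apart by Dixon's test at the 95% level. The knockout sets pool 3 lines that differ. In those sets the test cannot show whether a library, such as line 1 heavy, stands apart from its own line.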

How the results depend on the processing

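Calls were recomputed with RLE factors, DESeq2, no filter on low counts, a stricter filter (at least 1 CPM in at least 3 libraries), the replicate block (not for the test among lines) and without each library in turn. Knockout against wild type was also run in each medium alone and with counts summed per line. Of 432 log2 fold changes of called members under an alternative, 390 kept their direction and their call, 42 kept their direction and lost the call, and 0 reversed. For knockout against wild type the 4 member calls became 1 with counts summed per line, 0 in heavy medium alone and 1 in light medium alone, where fewer libraries enter, and the share of all genes called went from 24.8% to 1.58%, 0.108% and 1.35%. Without filtering, 2 members (CDH11 and PCDH9) were called between media, against 0, beside 0.698% of all genes. With the replicate block, line 3 had 1 call against 4, and the counts were 5 in knockout, 6 in line 1 and 9 in line 2, beside 1.80%, 26.8%, 21.3% and 33.6% of all genes. In that fit each line is set against only the wild-type libraries of its own number, not all 6, so the comparison itself changes. The wild-type numbers do not pair libraries (correlations of deviations with the knockout libraries between -0.244 and 0.014). Leaving out single libraries gave 3 to 6 calls in knockout, 5 to 10 in line 1, 5 to 11 in line 2, 2 to 6 in line 3 and 4 to 8 among lines. The shares of all genes called ran from 15.6% to 35.4%, 9.24% to 29.2%, 25.3% to 44.3%, 1.77% to 7.57% and 13.1% to 26.1%. The low values came without line 2 heavy in line 2 (5), without line 3 heavy in line 3 (2) and without either of these among lines (4). DESeq2 gave 5 calls in knockout, 8, 9 and 3 in lines 1, 2 and 3, and 7 among lines, beside 28.4%, 27.0%, 40.6%, 5.63% and 23.1% of all genes. Depth limits CDH3, CDH8, CDH22, PCDH8 and PCDH10, which had 70 to 221 counts in all 12 libraries.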
